A study of Mus musculus with 20 samples.

Results

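Neutrophils of interscapular brown adipose tissue (iBAT) of the mouse were examined by single-cell RNA-seq of the stromal vascular fraction, the cells that remain when adipocytes are removed. Cells were counted as neutrophils in the immune (Lin+) libraries when their matrix values summed to at least 20 for S100a8 and S100a9, to at least 2 for Retnlg, Cxcr2 and G0s2, and to less than 1 for C1qa, C1qb, Cd79a and Cd3e. The limits on cell quality were less than 10% mitochondrial counts, a total under 15000 and 200 to 4000 genes. The rule found 2327 neutrophils among 54937 Lin+ cells within these limits, and the 20 libraries of the study held 121276 cells in all. The 10 libraries of the Lin- fraction, from which immune cells had been depleted with magnetic beads, held 0 cells that met the rule.

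All mice were 8 to 14 weeks old. The C57BL/6J mice were male and were kept at 24 °C (RT), housed at 6 °C for 4 days (COLD) or given CL316,243 (CL), an agonist of the β3 adrenergic receptor that acts mainly on adipocytes, by pump for 4 days at 24 °C. Each of these groups had 2 experiments. The mice of the other line were female, carried Adrb1 fl/fl and were all given tamoxifen. They either lacked (WT) or carried (KO) Pdgfra-CreER, so that the β1 receptor was deleted in cells that express Pdgfra, which are stromal cells and not leukocytes. Of this line there was 1 experiment for each genotype at RT and in the cold. Cells of 3 to 4 mice were pooled for every library, so pools are the replicates, and their number limits every test. In the Adrb1 line the RT libraries were made with version 3 and the COLD libraries with version 2 of the Chromium kit, and all C57 libraries with version 2. Per the study's methods, the libraries of the 2 temperatures were also collected on different days in that line. Kit, day and temperature cannot be told apart there. Adrb1 was low in the Pdgfra-expressing Lin- cells of the KO libraries, at 0.495 (RT) and 0.230 (COLD) CPM from 2 counts each, against 1.58 and 4.16 CPM in the WT libraries.

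Neutrophils are short-lived granulocytes that leave the bone marrow ready-made and enter tissues along gradients of chemokines such as Cxcl1, Cxcl2 and Cxcl5, which they sense through Cxcr2. They store antimicrobial proteins in granules that are filled while the cell matures in the marrow, so transcripts for granule proteins mark younger cells. In tissue they release S100a8/S100a9, interleukin 1β and further chemokines. In adipose tissue they are known as early arrivals when the tissue is disturbed.

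The Lin+ libraries differed in depth, and neutrophils had a median of 883 to 2075 counts and 440 to 937 genes per cell, while the other Lin+ cells had medians of 840.5 to 1785 genes. The sums over the neutrophils of a library ran from 117620 counts, from 38 cells of COLD replicate 1, to 1188760 counts in the WT library at RT. The Lin+ and Lin- libraries of CL replicate 2 shared 1097 cell barcodes (17.8% of the smaller library), whereas no other pair of libraries shared more than 193. Of the 372 neutrophils of CL replicate 2, 7 carried a shared barcode. S100a8 and S100a9 were also found in other cells: B cells, which do not make them, averaged 0.294 to 10.2 counts of the pair per cell, and 0.326 to 4.48% of them reached the limit of 20. The limit itself left 2 to 17 neutrophils per library between 20 and 30 counts of the pair, and 3 to 46 cells per library that met the rest of the rule lay between 10 and 20.

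The label was checked on 22 neutrophil genes that the rule did not use, as a description with no test, since the cells had been chosen on genes that move with these. At least 3 of the 22 were detected in 100% of the neutrophils of 9 libraries and in 99.7% of those of the WT COLD library, with a median of 10.5 to 15 per cell, against 3 to 7 in classical monocytes and 1 to 2 in B cells. At least 3 were also detected in 65.9 to 93.9% of classical monocytes and 6.45 to 34.6% of B cells. Monocytes were counted by Ly6c2 (at least 2 counts) and Ccr2 (at least 1), with C1qa, C1qb, Cd79a and Cd3e below 1 as for neutrophils. Cells that met the neutrophil rule were not counted as monocytes, so a cell that met both was a neutrophil. Levels, as CPM of the summed cells (counts scaled to the same total in every library), were above those of all other Lin+ cells in each of the 10 libraries for 21 of the 22 genes. The exception was Cd177, a surface protein of neutrophils, whose log2 ratio ran from -3.26 to 2.74. Csf3r, the receptor for granulocyte colony-stimulating factor, had a median log2 ratio of 4.37 (3.69 to 4.71), and Ly6g, the standard surface marker of mouse neutrophils, one of 5.04 (2.90 to 6.68). Of the 20 genes with the largest ratios 7 stood on the list of 22, among them Stfa2l1, Wfdc21 (median log2 ratio 5.52) and Slpi. Further genes of this lineage among the 20 were Gm5483, Asprv1, Il1f9 and Arg2. The 20 also held Ngp, Camp, Ltf and Stfa1, with median log2 ratios of 5.24 to 5.90. Their lowest ratios over the libraries were -2.15, -5.72, -2.93 and -0.07. Transcripts of the primary granules, which are made by progenitors in the marrow (Mpo, Elane, Prtn3 and Ctsg), were at or near 0, with a sum of 0 to 23.7 CPM.

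**Figure D1:**
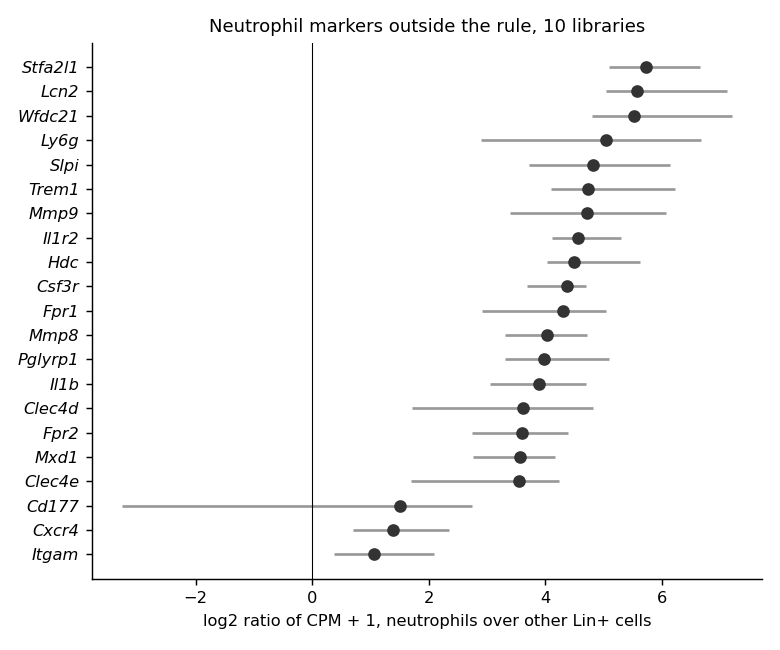
Log2 ratio of CPM + 1 in neutrophils over all other Lin+ cells for 21 of the 22 marker genes outside the rule; points are medians and lines the range over 10 libraries. All lines lie above 0 except that of Cd177, which reaches -3.26.

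In C57 mice neutrophils were 4.11% and 2.92% of Lin+ cells at RT, 0.476% and 2.70% after cold, and 3.25% and 6.04% during CL infusion. The mean was 3.51% ± 0.844 (SD, n = 2) at RT, 1.59% ± 1.57 in the cold and 4.64% ± 1.98 with CL. COLD replicate 1, with 38 neutrophils among 7975 cells, was the low library, and CL replicate 2, with 372 among 6156, was the high one. The cold difference was -1.93 points (two-sided exact permutation test, p = 0.333) and the CL difference 1.13 points (p = 0.667, exact), and 0.333 is the smallest p that 2 libraries against 2 allow. The cold difference was -0.818 points without COLD replicate 1 and -3.04 points without COLD replicate 2. The CL difference was -0.27 points without CL replicate 2, 2.53 without CL replicate 1, 1.73 without RT replicate 1 and 0.535 without RT replicate 2. Leaving out the cells whose barcode was shared gave CL replicate 2 a share of 7.21%. As depth differed, cells were also thinned at random to 1000 counts before the rule was applied, and smaller cells were left out. The shares were then 2.33% and 2.04% at RT, 0.148% and 1.08% after cold and 1.31% and 6.04% with CL.

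In the Adrb1 line neutrophils were 12.96% (422 of 3255) and 8.83% (203 of 2298) of Lin+ cells at RT in WT and KO mice, and 3.84% (352 of 9176) and 5.89% (238 of 4044) in the cold. The share was thus lower in the cold in each of 4 pairs of experiments. Over both lines the mean was 7.21% ± 4.61 (SD, n = 4) at RT against 3.22% ± 2.26 after cold, a difference of -3.98 points that did not pass an exact permutation test (p = 0.171, smallest possible 0.0286) and was -2.06 points without the WT library at RT. With labels exchanged within each line only, an alternative added after seeing the data, p was 0.0556 (exact permutation), and this design allows no smaller value. KO differed from WT by -4.13 points at RT and by 2.05 points in the cold, with 1 library each and no test. These are shares of the cells that passed dissociation and bead sorting, and a share also moves when other cells are recruited: classical monocytes were 2.40% and 3.13% of Lin+ cells at RT in C57 mice and 6.34% and 4.02% in the cold. The neutrophils per monocyte in C57 mice came to 1.71 and 0.933 at RT, to 0.0751 and 0.671 after cold and to 0.722 and 1.99 with CL. In the Adrb1 line this ratio was 3.87 (WT) and 3.98 (KO) at RT and 0.365 and 0.563 in the cold.

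**Figure D2:**
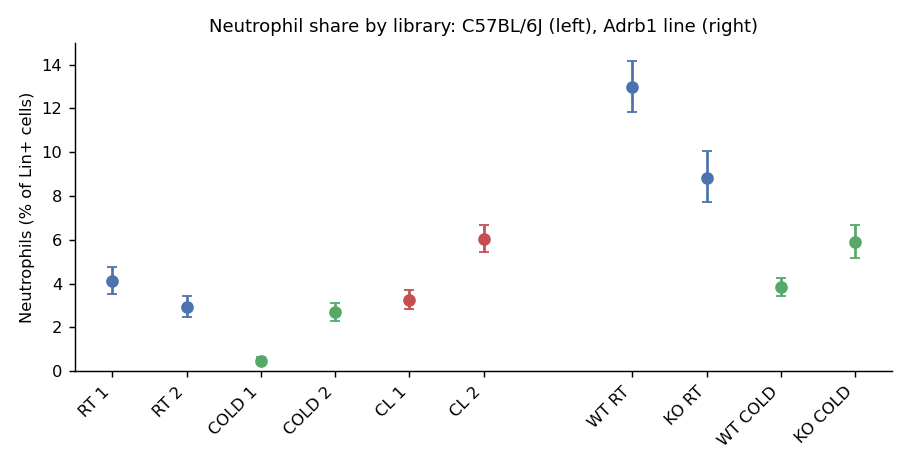
Neutrophils as a percentage of Lin+ cells within the limits for each of 10 libraries; bars are exact (Clopper-Pearson) 95% intervals, which cover counting error only. COLD replicate 1 (0.476%) is the lowest and the WT library at RT (12.96%) the highest; the y axis starts at 0.

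A part of the cells that met the rule also carried transcripts of other myeloid cells, and the size of this part varied with the conditions. The part of doublets and of cell-free RNA in this was not tested. Neutrophils with at least 5 counts over a list of 10 monocyte and a list of 10 macrophage genes were 26.7% and 27.3% of neutrophils at RT, 44.7% and 34.1% after cold, and 14.3% and 23.7% with CL. Being larger, they supplied 51.1% and 55.9% of all neutrophil counts at RT, 78.7% and 69.97% after cold, and 35.2% and 43.6% with CL. Cold also gave the higher values in the Adrb1 line, with 63.6% and 70.3% of counts against 41.4% and 44.9% at RT. The summed macrophage list, in which Apoe, Cd68, Gpnmb, Ms4a7 and Trem2 stand, was 2187 and 1255 CPM at RT, 9283 and 5314 CPM in the cold and 1865 and 1932 CPM with CL. The monocyte list summed to 1518 and 1710.4, 3256 and 2519.6 and 2804 and 1468 CPM in the same order. No gene of either list was at 0 in a COLD or CL library. Every comparison of genes in neutrophils below was therefore computed a second time on the neutrophils with under 5 such counts, a choice made after seeing the data. In C57 mice these were 132 and 101 cells at RT, 21 and 114 after cold and 180 and 284 with CL. With fewer cells and counts fewer genes can pass, so a lost call there does not show that a change was absent. These neutrophils are a part of the same cells, so a kept direction there is no separate support for a change.

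**Figure D3:**
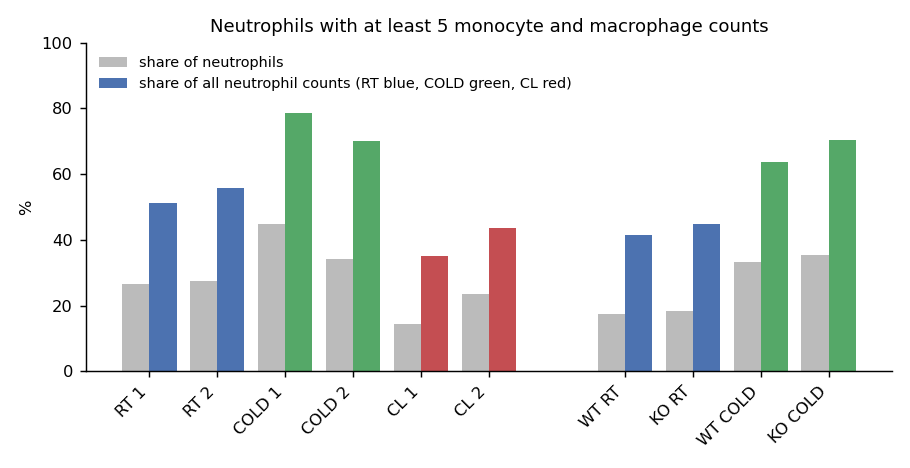
Share of neutrophils with at least 5 counts over the monocyte and macrophage lists (grey bars) and the share of all neutrophil counts that they supply (coloured bars), in percent, for each of 10 libraries. The coloured bars of the 4 COLD libraries (63.6 to 78.7%) stand above those of the 4 RT libraries (41.4 to 55.9%).

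The cold response of the neutrophil transcriptome was assessed first, on counts summed per library. In edgeR's quasi-likelihood test with Benjamini-Hochberg adjustment, 131 of 4028 genes (3.25%) passed an adjusted p of 0.05: 99 were higher after cold (2.46% of genes tested) and 32 lower (0.794%). At an unadjusted p under 0.05 there were 815 genes, and DESeq2 called 61. With the experiment number as a block the count was 224. It was 27 without the cells in the top 6% of Scrublet doublet scores and 0 among neutrophils under 3000 counts (175 unadjusted). Leaving out 1 library gave 33 (RT replicate 1 dropped), 69 (RT replicate 2), 69 (COLD replicate 1) and 56 (COLD replicate 2). The median log2 fold change of all genes tested was -0.05. Among neutrophils with under 5 monocyte and macrophage counts the same test called 1 of 1882 genes (0.0531%; 151 at an unadjusted p under 0.05), namely Alas2, the first enzyme of haem synthesis in erythroid cells. Of the 130 called genes outside the rule, 70 could be tested in those cells, which are a part of all neutrophils. There 63 kept their direction, but the median size of the change fell from 1.63 to 0.89 on the log2 scale. Hemoglobin and the other erythroid genes summed to 32520.1 and 23899 CPM in those cells at RT against 192677 and 117344 CPM after cold. The part of erythroid RNA in the result was not tested.

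**Figure D4:**
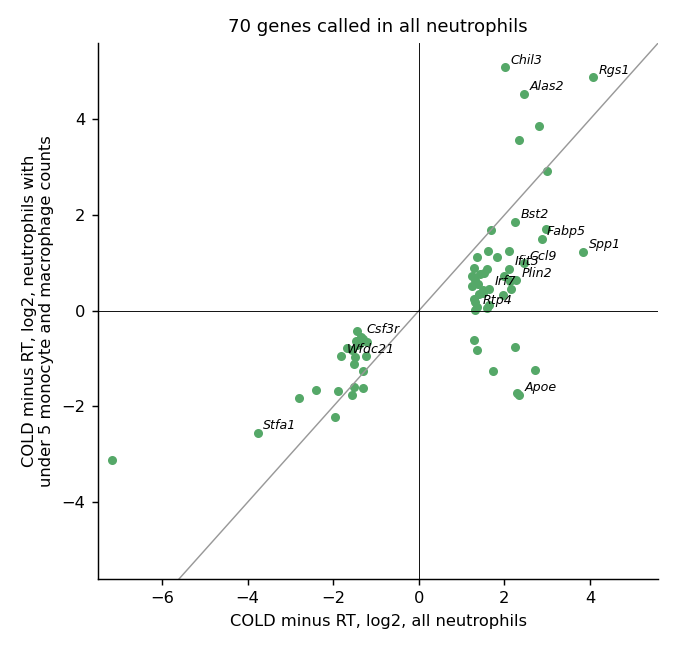
Log2 fold change of COLD over RT in all neutrophils (x axis) and in neutrophils with under 5 monocyte and macrophage counts (y axis), for the 70 called genes that could be tested in both; the grey line marks equality. Most points lie nearer to 0 on the y axis, and 7 change sign, among them Apoe (2.35 and -1.76).

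Genes that mark neutrophils had lower levels after cold in C57 mice. All 22 markers outside the rule had a negative log2 fold change, with a median of -0.79, and 4 fell past the threshold, against 0 that rose. Over all genes tested 2111 were negative and 1917 positive, and 0.794% fell past the threshold. Csf3r was at 1103 and 799 CPM (RT) and 304 and 427 CPM (COLD) (log2 fold change -1.35, SE 0.33, adjusted p = 0.0337). The groups did not overlap. Wfdc21, a small secreted protein of granulocytes, was at 1375 and 1439 CPM at RT against 288 and 495 after cold (log2 fold change -1.81, SE 0.34, adjusted p = 0.00766). Stfa2l1, a stefin protease inhibitor, fell by 1.56 on the log2 scale (adjusted p = 0.0457), and its relative Stfa1, which is not among the 22, was at 164 and 323 CPM (RT) and 0 and 24.01 CPM (COLD) (adjusted p = 0.00327). Both libraries of the cold group lay below both at RT for Csf3r, Wfdc21, Stfa2l1 and Stfa1. Stfa1 was still called without each library in turn, Wfdc21 was lost without COLD replicate 1, Csf3r without RT replicate 1 or either COLD replicate, and Stfa2l1 without any of the 4 libraries. Among neutrophils with under 5 monocyte and macrophage counts the median over the 21 markers tested was 0.04 and none was called, with log2 fold changes of -0.54 for Csf3r and -0.95 for Wfdc21. In the Adrb1 line Csf3r was at 1731 (WT) and 1767 (KO) CPM at RT against 392 and 532 CPM after cold, lower as in C57 mice. In the fit over both lines Stfa1 (0.21) and Wfdc21 (0.12) were not lower. Wfdc21 went the other way in the Adrb1 line, with 489 and 388 CPM at RT against 1785 and 1561 CPM after cold.

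The calls in the granule, receptor, adhesion and signalling lists are given beside the 3.25% of all genes called. Of 14 tested genes for secondary and tertiary granule proteins 1 rose and 0 fell, with a median of -0.74. The one that rose was Chil3, a chitinase-like protein that macrophages make as well, at 70.8 and 196 CPM at RT against 463 and 615 after cold (log2 fold change 2.02, SE 0.42, adjusted p = 0.0163). Csf3r was the only call among 15 chemoattractant and growth factor receptors (median -0.49). Of 14 adhesion and migration genes 2 fell and none rose (median -0.51). One of them, Itgal, the α chain of the integrin LFA-1, was at 555 and 447 CPM (RT) and 112 and 233 CPM (COLD) (log2 fold change -1.44, SE 0.38, adjusted p = 0.0457). No gene passed among 14 for innate sensing, 10 for the oxidative burst, 19 transcription factors or 13 for survival.

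Of 14 tested cytokine genes 1 passed the test for cold, where 3.25% of all genes did. Il1b, for interleukin 1β, was at 6732 and 6205 CPM at RT against 4089.9 and 4648 after cold (log2 fold change -0.57, SE 0.30, adjusted p = 0.294). Cxcl2, a chemokine that attracts further neutrophils, was at 4858 and 4926 CPM (RT) and 4905 and 6566 CPM (COLD) (log2 fold change 0.23, SE 0.31, adjusted p = 0.711), and the groups overlapped. Ccl3 (0.08) and Ccl4 (0.40), which attract monocytes and T cells, were not called either. With each cell thinned to 500 counts, Cxcl2 was detected in 65.9 to 67.4% of neutrophils at RT against 68.4 to 71.2% in the cold, and Il1b in 86.5 to 87.0% and 73.7 to 83.5%, while 2.9 to 5.6% and 1.3 to 5.3% of B cells in those libraries had a count of Cxcl2 or Il1b. Without thinning Cxcl2 was found in 78.9 to 84.9% of neutrophils at RT against 78.9 to 86.7% after cold, and Il1b in 95.6 to 96.4% against 92.1 to 96.5%. The gene that rose was Ccl9, a chemokine of the CCR1 ligands, at 123 and 262 CPM at RT against 1158 and 967 after cold (log2 fold change 2.46, SE 0.45, adjusted p = 0.00664), where the call was lost without RT replicate 1. In neutrophils with under 5 monocyte and macrophage counts Ccl9 was at 22.5 and 66.7 CPM (RT) and 139.9 and 73.6 CPM (COLD).

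Some interferon response genes rose in the cold. Of 24 listed genes 22 were tested, 21 had a positive log2 fold change, the median was 1.44 and 8 rose past the threshold: Bst2, Ifi204, Ifit1, Ifit3, Irf7, Rtp4, Usp18 and Xaf1. Over all 4028 genes tested 2.46% rose past it, and the median was -0.05. Bst2, or tetherin, which holds budding virus at the cell surface, was at 119 and 90.8 CPM at RT against 447 and 543 after cold (log2 fold change 2.25, SE 0.34, adjusted p = 0.00178). Irf7, the transcription factor that amplifies type I interferon, was at 78.2 and 98.1 CPM (RT) and 239.6 and 305 CPM (COLD) (log2 fold change 1.65, SE 0.32, adjusted p = 0.00906). Rtp4, a chaperone induced by interferon, was at 134 and 153 CPM at RT against 407 and 341 after cold (log2 fold change 1.37, SE 0.30, adjusted p = 0.0214). In these 3 genes the lowest COLD library lay above the highest RT library. Isg15, a ubiquitin-like modifier, was at 421 and 363 CPM (RT) and 639 and 562 CPM (COLD) and was not called (log2 fold change 0.61, SE 0.29, adjusted p = 0.254). The whole list summed to 3917 and 4513 CPM at RT, 8312 and 7829 CPM in the cold and 7891 and 5988 CPM with CL. Bst2 stayed past the threshold without each library in turn, but Rtp4, Ifi204 and Xaf1 lost the call without any of the 4 libraries. Among neutrophils with under 5 monocyte and macrophage counts 11 of the genes could be tested, 8 of them were positive, the median was 0.45 and none was called. The summed list was 2582 and 2951 CPM at RT against 2462 and 2854 after cold in those cells. There Bst2 was at 15.02 and 41.7 CPM at RT against 46.6 and 119.6 after cold, and Rtp4 at 158 and 217 CPM (RT) and 233 and 184 CPM (COLD), a level at which the groups overlapped. Over the 8 RT and COLD libraries of both lines, Ifit1 (-0.38) and Ifit3 (-0.25) had a negative log2 fold change in these cells.

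Interferon-stimulated genes are transcribed from elements that bind STAT and IRF proteins, and promoters (250 bases before to 50 after the RefSeq start, GRCm38.p6) were searched on both strands for the element GAAANNGAAA, in which matches may overlap. It stood in the promoters of 3.99% of 27025 genes and of 11 of the 18 listed interferon genes with a promoter in the table. Of the called genes, 5 had a promoter there, and 3 of them held a match. Stretches around matches are shown, 5′ to 3′ on the gene's strand, for these 3 genes and for Isg15, whose promoter holds 3 overlapping matches although the gene was not called. Of 2 matches in the Ifit3 promoter 1 lies in the stretch shown. Capitals mark the element or its reverse complement.
Bst2 (chr8:71537568-71537627, minus strand): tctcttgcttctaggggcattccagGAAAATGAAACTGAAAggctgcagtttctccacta
Ifit1 (chr19:34640779-34640838, plus strand): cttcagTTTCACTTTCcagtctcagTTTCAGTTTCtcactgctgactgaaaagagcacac
Ifit3 (chr19:34583382-34583441, plus strand): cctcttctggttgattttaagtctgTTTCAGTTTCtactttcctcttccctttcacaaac
Isg15 (chr4:156200862-156200921, minus strand): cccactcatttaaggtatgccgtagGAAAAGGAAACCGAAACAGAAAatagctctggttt
A match describes the letters only and was not tested for binding.

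Some lipid handling genes rose in the cold. Of 13 tested lipid genes 5 were positive and 8 negative (median -0.09), and 4 rose, where 2.46% of all genes tested did: Plin2, Fabp5, Hilpda and Lpl. Plin2, which coats lipid droplets, was at 115 and 203 CPM at RT against 695 and 843 after cold (log2 fold change 2.27, SE 0.34, adjusted p = 0.00167) and stayed past the threshold without each library in turn. Fabp5, a fatty acid binding protein, was at 175 and 65.4 CPM (RT) and 543 and 1183 CPM (COLD) (log2 fold change 2.87, SE 0.50, adjusted p = 0.00477), a call lost without RT replicate 2 or COLD replicate 2. Hilpda, an inhibitor of lipolysis induced by hypoxia, was at 14.9 and 18.2 CPM at RT against 87.9 and 64.8 after cold (adjusted p = 0.0266). Plin2 was at 90.1 and 183 CPM (RT) and 233 and 202 CPM (COLD) in neutrophils with under 5 monocyte and macrophage counts (log2 fold change 0.63). With the same thinning Plin2 was detected in 4.5 and 6.5% of neutrophils at RT against 15.8 and 20% in the cold, in 6.7 and 6.0% and then 28.1 and 21.3% of monocytes, and in 0.2 and 0.7% and then 4.6 and 3.5% of B cells. Without thinning it was in 14.4 and 26.6% of neutrophils at RT against 42.1 and 38.2% after cold.

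The 12 genes named by the largest rises were Gpnmb, Nr1h3, Ctsk, C3ar1, Trem2, Rgs1, Ms4a7, Rgl1, Ccl12, Spp1, Ccl7 and Vat1, of which Gpnmb, Ms4a7 and Trem2 stand on the macrophage list. Gpnmb, a lysosomal glycoprotein of lipid-laden macrophages, was at 3.73 and 0 CPM at RT against 256 and 278 after cold (adjusted p = 3.78e-05). Trem2, a lipid receptor of macrophages, was at 7.45 and 14.5 CPM (RT) and 248 and 199 CPM (COLD) (log2 fold change 4.27, SE 0.52, adjusted p = 0.000323). Spp1, or osteopontin, was at 70.8 and 18.2 CPM at RT against 655 and 631 after cold (log2 fold change 3.85, SE 0.83, adjusted p = 0.0187). For Gpnmb and Trem2 no level at RT came near a level in the cold, and in neutrophils with under 5 monocyte and macrophage counts neither was high enough to be tested. Rgs1, a brake on G protein signalling in leukocytes, is on neither list and was at 37.3 and 21.8 CPM (RT) and 511 and 492 CPM (COLD) (log2 fold change 4.07, SE 0.39, adjusted p = 3.78e-05). In the neutrophils with few such counts Rgs1 was at 15.02 and 16.7 CPM at RT against 1306 and 82.8 after cold, so that COLD replicate 1 carried most of the difference. Of the lists of other cells, 5 of 10 macrophage, 3 of 10 monocyte (among them Fcgr1 and Ly6c2), 1 of 5 tested erythroid (Alas2), 0 of 6 tested dendritic and 0 of 2 tested lymphocyte genes rose, and none fell. Over all genes tested 2.46% rose and 0.794% fell.

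The 12 genes named by the largest falls were Retnla, Mt2, Stfa1, Ebf1, Igkc, Rps12-ps3, Rps27rt, Grcc10, Cd81, Jdp2, Zcchc11 and Rflnb. Retnla, a secreted protein of alternatively activated macrophages and adipocytes, was at 741 and 1537 CPM (RT) and 15.98 and 4.80 CPM (COLD) (adjusted p = 0.00257). Igkc, an immunoglobulin light chain made by B cells, was at 399 and 225 CPM at RT against 7.99 and 60.01 after cold (adjusted p = 0.00906), and Ebf1, a transcription factor of B cells and adipocytes, at 93.1 and 47.2 CPM (RT) and 7.99 and 9.60 CPM (COLD) (adjusted p = 0.0337). These 3 genes are not transcripts that define neutrophils. Their values in COLD replicate 1, with 38 neutrophils, rest on very few counts. Rps27rt and Rps12-ps3 are near copies of ribosomal protein genes, so reads can be split between them and their parents and their values are uncertain. Rps27rt and Mt2 were not lower in the fit over both lines, at 0.45 and 0.093 on the log2 scale.

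**Figure D5:**
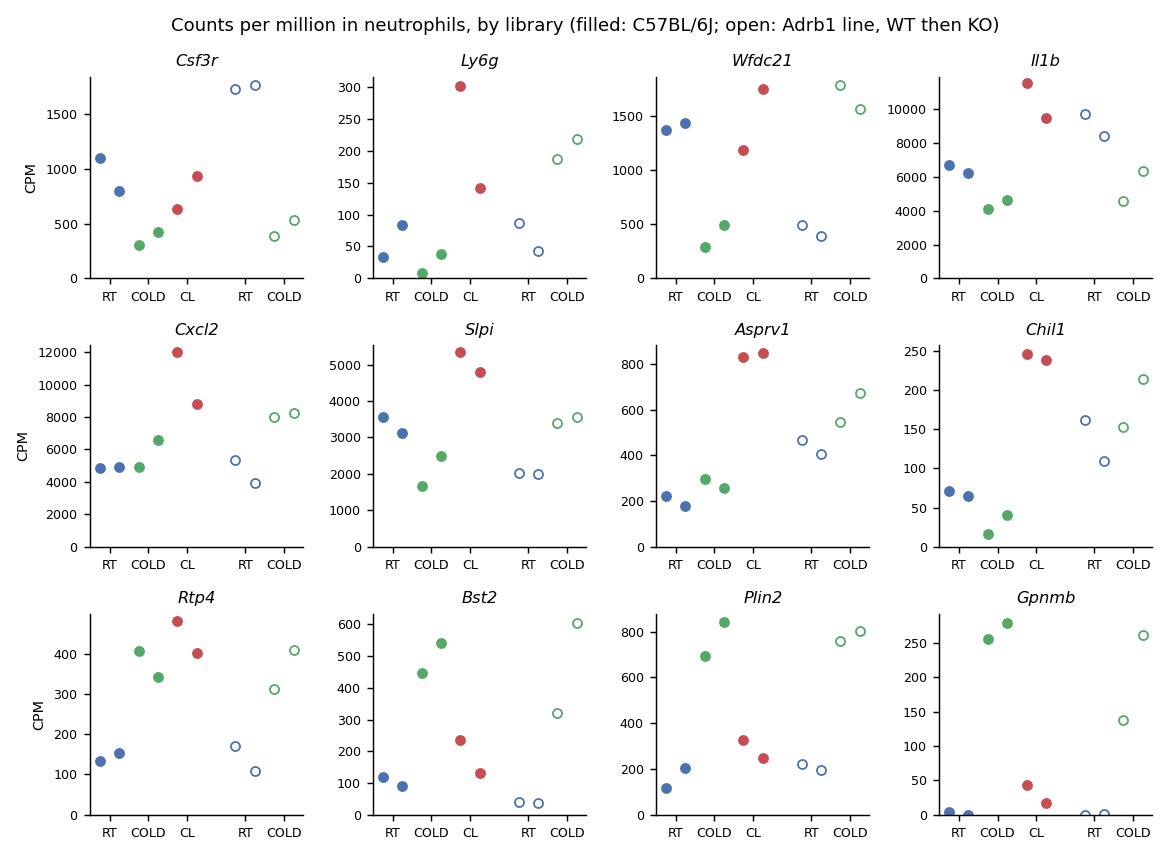
CPM of 12 genes in the summed neutrophils of each library, one panel per gene with its own y axis from 0; filled points are C57BL/6J and open points the Adrb1 line (WT, then KO), RT in blue, COLD in green and CL in red. Csf3r is lowest in the COLD libraries of each line, Asprv1 and Chil1 are highest in the CL libraries, and Gpnmb is near 0 at RT.

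CL infusion was compared with the same RT libraries, so both comparisons share their controls. Of 4028 genes 16 were called (0.397%), 6 higher and 10 lower, with 445 at an unadjusted p under 0.05 and 24 by DESeq2, and 40 with the experiment as a block. It was 1 without the top Scrublet scores and 0 among neutrophils under 3000 counts (237 unadjusted). Without single libraries the count was 6 (RT replicate 1), 46 (COLD replicate 1), 2 (CL replicate 1) and 67 (CL replicate 2). The genes that rose were Asprv1, Chil1, Stfa2, Rtp4, Hilpda and Oasl1. Of the 22 neutrophil markers 15 were positive and 7 negative (median 0.25), and 0 were called. Asprv1, a protease of skin and neutrophils, was at 219.8 and 178 CPM at RT against 832 and 849.6 under CL (log2 fold change 2.08, SE 0.29, adjusted p = 0.00947), with a call lost without RT replicate 2. Chil1, a chitinase-like granule protein, was at 70.8 and 65.4 CPM (RT) and 246 and 238 CPM (CL) (log2 fold change 1.82, SE 0.34, adjusted p = 0.0239). Stfa2, a stefin, was at 3.73 and 3.63 CPM at RT against 39.1 and 97.2 under CL (adjusted p = 0.0239). Both CL libraries stood well above both RT libraries for Asprv1, Chil1 and Stfa2. Rtp4 was at 134 and 153 CPM (RT) and 480.5 and 402 CPM (CL) (log2 fold change 1.61, SE 0.30, adjusted p = 0.0239), Hilpda at 14.9 and 18.2 CPM at RT against 85.9 and 70.6 under CL (log2 fold change 2.18, SE 0.45, adjusted p = 0.0478), and the antiviral gene Oasl1, which stands on no list and was named after its value was seen, was the sixth (adjusted p = 0.0478). The 10 genes that fell were the ribosomal protein genes Rpl35 (-1.87) and Rpl36a (-1.80), 3 ribosomal pseudogenes or copies with uncertain reads (Rpl9-ps6, Rpl10-ps3 and Gm2000), the metallothionein Mt1 (436 and 545 CPM at RT and 141 and 145 CPM with CL, adjusted p = 0.0239), the heat shock gene Hspa1b, the eosinophil-associated ribonuclease Ear2, Wdr89 and the dendritic cell lectin Cd209a.

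The CL response was also computed in the neutrophils with few transcripts of other myeloid cells. They are a part of the cells in which the genes were called, so the directions are not separate support. Of the 16 genes, 9 could be tested among neutrophils with under 5 monocyte and macrophage counts, all 9 kept their direction, and the median size of the change was 1.87 in all neutrophils and 1.55 in those. None passed the adjusted threshold there (156 of 1882 genes at an unadjusted p under 0.05). Asprv1 was at 323 and 317 CPM (RT) and 1205 and 985 CPM (CL) in those cells. Of the interferon list, 19 of 22 genes were positive with CL, with a median of 0.88 and 1 called (Rtp4), and in the neutrophils with few such counts 11 of 11 were positive (median 0.95). The secondary and tertiary granule list had a median of 0.86 with 0 of 14 called, the cytokine list one of 0.56 with 0 of 14, against -0.01 for all genes tested. Il1b (6732 and 6205 CPM at RT, 11535 and 9473 CPM with CL; log2 fold change 0.70, SE 0.30, adjusted p = 0.41) and Cxcl2 (4858 and 4926 and 12015 and 8826 CPM; log2 fold change 1.09, SE 0.31, adjusted p = 0.187) lay higher in both CL libraries without passing. Ly6g was at 33.5 and 83.6 CPM at RT against 301 and 141 under CL (log2 fold change 1.85, SE 0.47, adjusted p = 0.137). Without the cells whose barcode was shared the count of called genes was again 16.

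COLD and CL were also compared with each other. Here 104 of 4028 genes were called (2.58%), 62 higher in the cold and 42 lower, with 749 at an unadjusted p under 0.05, 60 by DESeq2 and 198 with the block, and 45, 52 and 25 without COLD replicate 1, COLD replicate 2 and CL replicate 2. It was 18 without the top Scrublet scores and 1 under 3000 counts. Neutrophil markers were again lower in the cold: 22 of 22 were negative (median -1.10) and 8 were called. Lrg1, a secreted glycoprotein of neutrophil granules, was at 55.9 and 182 CPM after cold against 1074 and 575 under CL (log2 fold change -2.61, SE 0.45, adjusted p = 0.00728). Ly6g was at 7.99 and 38.4 CPM in the cold and 301 and 141 CPM with CL (log2 fold change -2.82, SE 0.53, adjusted p = 0.0105), Chil1 at 15.98 and 40.8 and 246 and 238 CPM (log2 fold change -2.83, SE 0.38, adjusted p = 0.00136), and Il1b at 4089.9 and 4648 and 11535 and 9473 CPM (log2 fold change -1.26, SE 0.30, adjusted p = 0.036). Ly6g, Lrg1 and Chil1 kept the call without each library in turn, and Il1b lost it without either RT or either COLD library. In COLD replicate 1, with 38 neutrophils and 117620 counts in all, the values of Ly6g and Chil1 rest on very few counts. The genes that were higher in the cold were led by Ctsk, Ccnd1, Ccl12, Gpnmb and Cxcl10. With few monocyte and macrophage counts 3 genes were called, 60 of the called genes could be tested and 50 kept their direction, at a median size of 0.62 in place of 1.57. Among the 21 neutrophil markers tested there 15 were negative and 6 positive (median -0.18), and none was called. The log2 differences in those cells were -1.50 for Ly6g, -1.37 for Chil1 and -0.37 for Il1b.

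Deletion of Adrb1 in Pdgfra-expressing cells was compared in a fit over all 10 Lin+ libraries, with 1 genotype term for both temperatures. EdgeR called 0 of 6193 genes (0%), DESeq2 called 0 and 122 had an unadjusted p under 0.05. Below the threshold, the genes with the smallest p among those whose groups did not overlap and that reached 50 CPM were the dendritic cell and macrophage lectins Cd209a (log2 fold change 2.34, SE 0.45, adjusted p = 0.164), Clec10a (1.67, SE 0.38, adjusted p = 0.512) and Mgl2 (1.57), then Oasl1 (0.90), Clic4 (0.97) and Ifit1 (0.92). The 22 neutrophil markers had a median of -0.02, and 22 of 24 interferon genes were positive with a median of 0.51, against -0.002 for all genes tested. In neutrophils with under 5 monocyte and macrophage counts 6 of 16 interferon genes tested were positive (median -0.023).

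Secondary granule transcripts were used to describe how many neutrophils carried the RNA of younger cells. Each neutrophil was thinned to 500 counts, and cells with a count of Ltf, Camp or Ngp were 0.562% and 2.17% at RT, 0% (0 of 38, which allows a share of cells with such a count of up to 7.89%) and 2.35% in the cold, and 8.16% and 2.96% with CL. They were 4.03% and 1.97% at RT in WT and KO mice and 6.31% and 6.38% in the cold, while 0 to 0.790% of B cells carried one. Without thinning the shares were 1.67% and 2.88%, 0% and 3.47%, 9.05% and 4.57% in C57 mice, and 9.72%, 3.94%, 16.2% and 14.7% in WT and KO mice at RT and then in the cold. Thinning left out 0 to 19 neutrophils per library. The C57 differences were -0.191 points for cold (exact permutation test, p = 1.00) and 4.19 points for CL (exact permutation test, p = 0.333, the smallest possible). The cold value reversed without COLD replicate 1 (0.985) and without RT replicate 2 (0.615) and was -1.37 without COLD replicate 2 and -0.997 without RT replicate 1. The CL value was 1.59 without CL replicate 1 and 6.80 without CL replicate 2. Of the thinned cells 92 carried such a transcript and 2193 did not: 38.0% of the first and 14.4% of the second had Mmp8, the neutrophil collagenase of the secondary granules, 66.3% and 87.6% had Il1b, and 58.7% and 82.2% had a chemokine transcript. In the 9 libraries with such cells, 1 to 21 each, Mmp8 was more frequent among them in 9, Il1b less frequent in 6 and more frequent in 3, and chemokine transcripts less frequent in 8. Cells of 1 library are not replicates, so these shares are a description.

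Levels of these transcripts varied widely within groups. Camp, an antimicrobial peptide precursor, was at 0 and 988 CPM at RT, 0 and 252 after cold and 1598 and 800.3 under CL. Ngp, a cathelin-like granule protein, was at 11.2 and 621 CPM at RT, 0 and 262 after cold and 1523 and 755 under CL. Lcn2, or lipocalin 2, was at 715 and 618 CPM at RT, 176 and 456 after cold and 1953 and 891 under CL. CL replicate 1 was the highest C57 library for the 3 genes and COLD replicate 1 the lowest or equal lowest. None was called against RT. Between COLD and CL, Lcn2 was called (log2 difference -2.09, SE 0.42, adjusted p = 0.0147), and Camp (adjusted p = 0.159) and Ngp (adjusted p = 0.121) passed when the experiment number was a block (adjusted p = 0.0322 and 0.0226). Cxcr4, the receptor that holds neutrophils in the marrow and rises as they age, was at 667 and 487 CPM at RT, 279.6 and 437 after cold and 352 and 617 under CL and was not called.

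The neutrophil response was then set against that of classical monocytes from the same libraries, in one fit with the library as a block. The cold response differed for 36 of 6715 genes (0.536%; 9 higher and 27 lower in neutrophils, 655 at an unadjusted p under 0.05, 23 by DESeq2), and the CL response for 0 (0%; 449 unadjusted, 0 by DESeq2). The count for cold was 14, 6 and 19 without RT replicate 1, RT replicate 2 and COLD replicate 1, and 127 and 110 without CL replicate 1 and 2. It was 7 without the top Scrublet scores and 67 under 3000 counts. Changes within a class are from its own fit and the difference is from the joint fit, so that they need not add up. Cxcl2 was at 189 and 104 CPM at RT against 1691 and 963 after cold in monocytes, a change of 3.20 on the log2 scale, against 0.23 in neutrophils (difference -3.01, SE 0.47, adjusted p = 0.00267). Isg15 was at 166 and 159 CPM at RT against 1412 and 735 after cold in monocytes, a change of 2.72 against 0.61 (difference -2.04, SE 0.31, adjusted p = 0.0022). C5ar1, the receptor for complement C5a, was at 28.2 and 18.04 CPM at RT against 325 and 279 after cold in monocytes and at 365 and 538 CPM (RT) and 567 and 691 CPM (COLD) in neutrophils (difference -3.32, SE 0.44, adjusted p = 0.000605). The levels of both Cxcl2 and C5ar1 in monocytes of the cold libraries stayed below those in neutrophils of the RT libraries. With the neutrophils of few monocyte and macrophage counts 41 genes differed, among them Isg15, C5ar1, Il1rn, Slfn4 and Cd74.

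Attractants of neutrophils were measured in the Lin- libraries, which hold the stromal and vascular cells. Levels are sums over all Lin- cells of a library, and the mix of cells differed. Pdgfra-expressing cells supplied a smaller part of the counts in RT replicate 2 than in RT replicate 1. In RT replicate 2 only 6171 of 22072 barcodes (28.0%) were kept. The median was 1247 counts there, 3358 in RT replicate 1 and 1204 in CL replicate 1. How far this shaped the levels and the lack of calls was not tested. None of the 20 listed genes was called after cold (2 of 15348 genes, 0.013%, passed, and 3750 had an unadjusted p under 0.05) or with CL (0 of 15348, 0%, and 1766 unadjusted). DESeq2 called 1541 and 424 genes, 4 of the list in each. Cxcl1, the main ligand of Cxcr2, was at 727 and 262 CPM at RT, 567 and 522 CPM in the cold and 636 and 879.9 CPM with CL, and the groups overlapped. Cxcl2 was at 27.2 and 21.4 CPM, 31.2 and 25.6 CPM and 54.4 and 49.7 CPM in the same order. For CL its adjusted p was 0.246 in edgeR and 0.00634 in DESeq2. Cxcl5, another ligand, was at 0.168 and 0 CPM, 11.8 and 6.31 CPM and 49.8 and 1.16 CPM in the same order. Saa3, an acute-phase protein of adipose tissue, was at 6.67 and 0.184 CPM, 341 and 453 CPM (adjusted p = 0.0809, and 0.044 with the experiment number as a block) and 646 and 178 CPM (adjusted p = 0.246). Ccl2, which attracts monocytes, was at 193 and 137 CPM, 836 and 532 CPM (log2 fold change 2.05, adjusted p = 0.0759) and 280.5 and 308 CPM. Saa3 and Ccl2 lay above RT in both cold libraries. In the Adrb1 line Cxcl5 was at 0.252 and 0.215 CPM at RT against 32.5 and 14.8 CPM after cold.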

How the data were processed

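Single-cell RNA-seq libraries were made from Lin+ and Lin- cells of iBAT. Per the labels and the study's methods, the authors aligned reads to mm10 with Cell Ranger 3.0.1 and corrected UMI counts with SoupX for cell-free RNA. The deposited values are therefore expected counts, most of them not whole, without scaling to a common total. Genes are given by symbol in 31053 rows. The counts of the neutrophils of a library were summed, rounded to whole numbers and tested with edgeR 4.0.16 (R 4.3.3; TMM, filterByExpr, glmQLFit and glmQLFTest, two-sided, Benjamini-Hochberg adjustment over all genes tested, threshold 0.05). The 6 C57 libraries entered one fit, and the comparison of KO with WT used all 10. Monocytes were fitted together with neutrophils with the library as a block. Shares were compared with exact permutation tests (scipy 1.17.1). The numbers of the experiments pair libraries according to the methods, where same-numbered libraries were processed together. The correlations of their deviations were 0.063 (RT and COLD), -0.004 (RT and CL) and 0.146 (COLD and CL) over 4028 genes. Replicates differed by a chi-square of 3.29 to 7.80 per degree of freedom. Counts cluster within cells, so this value cannot tell separate libraries from parts of the same library. Alternatives were DESeq2 1.42.0, other size factors, no filter, other limits of the rule, thinning, a mitochondrial limit of 5%, removal of the top 6% of Scrublet scores (scanpy 1.11.5) and leaving out each library. The members and the gene lists were chosen with earlier results of these data known. Text names genes of the lists and, per comparison, the 12 rising and 12 falling genes with the largest log2 fold change among those called, with groups that do not overlap and at least 50 CPM in the higher group. Where fewer than 5 genes were called, the 6 of smallest p that met the other criteria were named. The tests were tried on simulated counts with known changes. Promoter sequences are from RefSeq. Some listed genes are counted but not reported by name here.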

Additional observations from a re-analysis of the deposited data

Results flagged for a closer look

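For 18 of 256 listed genes the cold response of neutrophils differed from that of classical monocytes of the same libraries (class by treatment term in edgeR, adjusted p under 0.05; 36 of 6715 genes or 0.536% over all), and these are the results that stood out. Values are the response in neutrophils minus that in monocytes, on the log2 scale. A negative value can stand for a smaller rise in neutrophils or for a fall there. Values were negative for genes of inflammatory mediators, namely Cxcl2 (-3.01), Ccl3 (-1.53), Ccl4 (-1.90), Tnf (-1.80) and Il1rn (-3.30), which encodes the antagonist of the interleukin 1 receptor. They were also negative for the receptors C5ar1 (-3.32), Fpr1 (-7.17), Clec4d (-2.60), Clec4e (-1.57) and Cd36 (-1.67). The same held for the surface proteins Adam8 (-2.12) and Cd9 (-2.12) and the interferon genes Isg15 (-2.04) and Slfn4 (-2.69). Cd74 (-1.63), the invariant chain of MHC class II, was negative too. Fpr1, Clec4d and Clec4e are among the 22 neutrophil markers, all of which had a negative cold change in neutrophils. Fpr1 was at 0 in both RT sums of monocytes, so that its value depends on the prior count of the fit and is no measure of size.

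The response was larger in neutrophils for Ccl9 (1.57), Ly6c2 (1.62), which was used to count monocytes, and Trem2 (4.16). In neutrophils with under 5 monocyte and macrophage counts the difference was -0.08 for Ccl9 and 0.30 for Ly6c2, neither of them called. The call was also lost for Clec4e (-1.48), Cd9 (-1.79), Tnf (-1.81), Ccl3 (-1.39), Ccl4 (-2.31), Cd36 (-2.66) and Trem2 (6.46). It stayed past the threshold for Isg15 (-2.22), C5ar1 (-3.63), Il1rn (-4.02), Slfn4 (-3.01), Clec4d (-2.78), Adam8 (-2.44), Cd74 (-2.79), Cxcl2 (-2.72) and Fpr1. Ly6c2 and Trem2 are on the lists used to choose those cells, which lowers their levels in those neutrophils by construction. Trem2 was too low to be tested in those neutrophils alone, so its value of 6.46 is no measure of size. The count over all genes was 7 without the top Scrublet scores and 6 without RT replicate 2.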

How the results depend on the processing

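The neutrophil share after cold kept its direction under every alternative run, from -3.04 to -0.818 points in C57 mice and from -5.41 to -2.06 points over both lines when each library was left out in turn, and the exact permutation test cannot pass with 2 libraries against 2. In the Adrb1 line kit, day and temperature cannot be told apart. With CL the range was -0.27 to 2.53 points. The share of neutrophils with granule transcripts gave -1.37 to 0.985 points for cold, reversed without COLD replicate 1 (0.985) and without RT replicate 2 (0.615), and 1.59 to 6.80 points for CL. KO differed from WT by -6.04 points at RT with a mitochondrial limit of 5%, and in the cold by 1.01 points among neutrophils under 3000 counts and 1.25 points among those with under 5 monocyte and macrophage counts.

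Counts of genes moved more. For COLD against RT (131) they were 242 with no filter, 61 with DESeq2, 27 without the top Scrublet scores, 0 under 3000 counts (175 unadjusted, of 2286), 1 with few monocyte and macrophage counts, 224 with the replicate block, 33 to 160 without each library, 2346 over the 8 libraries of both lines and 258 there with few such counts, where kit and temperature cannot be told apart. For CL against RT (16) they were 70 with no filter, 1 without Scrublet scores, 0 under 3000 counts (237 unadjusted) and 0 with few such counts (156 unadjusted), 40 with the block and 2 to 67 without each library. For COLD against CL (104) they were 195, 60 with DESeq2, 18, 1 and 3 in the same order, 198 with the block and 25 to 116. KO against WT gave 14 with no filter. For neutrophils against monocytes, the cold response (36) gave 85 with no filter, 23 with DESeq2, 70 at a limit of 40 for S100a8 and S100a9, 7 without Scrublet scores, 67 under 3000 counts and 6 to 127 without each library. The CL response (0) gave 28, 16 at that limit, 28 under 3000 counts, 1 with few such counts and 0 to 37. Attractant genes (0) gave 4 with DESeq2 for cold and for CL, 1 with the block (Saa3) and 8 over both lines for cold, and 0 to 4 (cold) and 0 to 3 (CL) without each library. The block leaves differences in shares as they are, by its construction.

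Of 1527 values for 106 comparisons of single genes 980 kept direction and call, 531 lost the call and 16 reversed. With few monocyte and macrophage counts Apoe (-1.76) and Ccl2 (-1.25) were lower in the cold than at RT, and Apoe (-2.35), Ccl2 (-2.22) and Cd68 (-0.020) lower than with CL. Apoe and Cd68 stand on the macrophage list, so this setting removes cells with their transcripts by its construction. Ccl2 stands on neither list. Ccl2 was at -0.53 against CL under 3000 counts. Over both lines the cold change was 0.093 for Mt2, 0.45 for Rps27rt, 0.21 for Stfa1 and 0.12 for Wfdc21, and with few such counts -0.38 for Ifit1, -0.25 for Ifit3, 1.07 for Rps27rt, 0.90 for Stfa1, 0.29 for Stfa2l1 and 0.84 for Wfdc21; the cause was not tested. COLD replicate 1 rests on 38 neutrophils, of which 21 had few such counts.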
